A study of Mus musculus with 2 samples.

Results

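The cells described here are gingival cells with B cell transcripts in which no UMI (unique molecular identifier, the tag that marks 1 captured transcript) of Ighd or Fcer2a was counted. They were selected on the counts themselves, among barcodes with 200 or more genes and no more than 15% mitochondrial UMIs. A cell was taken if Cd79a, Cd79b and Ms4a1 together gave at least 4 UMIs and Ighd and Fcer2a gave 0. T cell genes (Cd3e, Cd3d, Cd3g, Trac) were limited to 1 UMI, Jchain to below 5 UMIs, and S100a8 with S100a9 to below 2% of UMIs. This rule found 1659 of 19705 kept cells (21376 barcodes in all), 1259 in the WT library and 400 in the library labelled Otud1-/-. They are called Ighd/Fcer2a-negative below, which means that no UMI was counted and not that the genes were silent. The 4554 cells that passed the same B cell gate with at least 1 Ighd or Fcer2a UMI, 1919 in WT and 2635 in the other library, are called Ighd/Fcer2a-positive and served for comparison.

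The study profiled immune cells from the gingiva of C57BL/6 mice, WT or Otud1-/-, in a setting of experimental periodontitis, with 1 droplet library of 3′ transcript ends per genotype. OTUD1 is a deubiquitinase, an enzyme that takes ubiquitin off other proteins. How many animals entered each library, their age and sex, how periodontitis was induced and whether both groups had it, and how Otud1 was deleted are not given in the sources used here. Each genotype had 1 library, so differences between them lack a replicate check, no test was run, and every 95% interval below covers counting error only.

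Ighd encodes the constant region of IgD and Fcer2a the low-affinity IgE receptor CD23. Both are surface proteins of mature naive follicular B cells, and both are lost as a B cell enters a germinal centre, switches its heavy chain class or becomes a memory or antibody-secreting cell. In a germinal centre, B cells divide, mutate their antibody genes and switch antibody class. B and plasma cells gather in inflamed periodontal tissue. In GRCm38 (mm10), Ighd lies on the minus strand of chromosome 12 at 113406604 to 113416324, next to Ighm at 113418558 to 113422730, and Fcer2a on the minus strand of chromosome 8 at 3681737 to 3694175.

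Otud1 UMIs did not follow the genotype label. In the Ighd/Fcer2a-negative cells 94 Otud1 UMIs were counted in each library, which gave 23.9 CPM (UMIs per 1000000 UMIs of these cells; 19.3 to 29.3) in WT and 45.9 CPM (37.1 to 56.1) in the library labelled Otud1-/-. The log2 ratio over WT was 0.93 (0.51 to 1.37). Reads from outside a deleted segment would be counted all the same, so this level does not check the label, and the second library is referred to by its label throughout. Xist, transcribed from the inactive X chromosome of females, gave 1271 UMIs in 433 of the WT cells and 0 among the 2048503 UMIs of the other library's cells. Y-linked genes were counted in 389 and 243 cells. The libraries thus differed in these transcripts, which cannot be told apart from genotype. Of all barcodes 37 occurred in both libraries, and 0 belonged to selected cells of both.

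Ighd/Fcer2a-negative cells made up 39.6% (37.9 to 41.3) of the WT cells passing the B cell gate and 13.2% (12 to 14.4) of those in the library labelled Otud1-/-. As shares of all kept cells they were 9.86% (9.35 to 10.4) and 5.77% (5.23 to 6.34). A count of 0 UMIs is easier to reach in a shallow cell, and the WT cells were shallower. Their median was 2546 UMIs per cell (range 790 to 31128) and 1138 genes, against 4039.5 UMIs (537 to 34263) and 1433 genes. The 3 gate genes together had a median of 7 UMIs per cell in WT and 13 in the other library. In cells with fewer than 1000 UMIs the share without Ighd or Fcer2a was 62.2% in WT and 55.6% in the other library, with intervals that overlap widely. From 3000 to 5000 UMIs it was 29.5% and 10.7%, and from 5000 UMIs upwards 29.3% (25.4 to 33.4) and 14.3% (12.2 to 16.7). After every cell was thinned to 2000 UMIs, leaving out shallower cells, the shares were 47.7% and 29.1%.

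**Figure D1:**
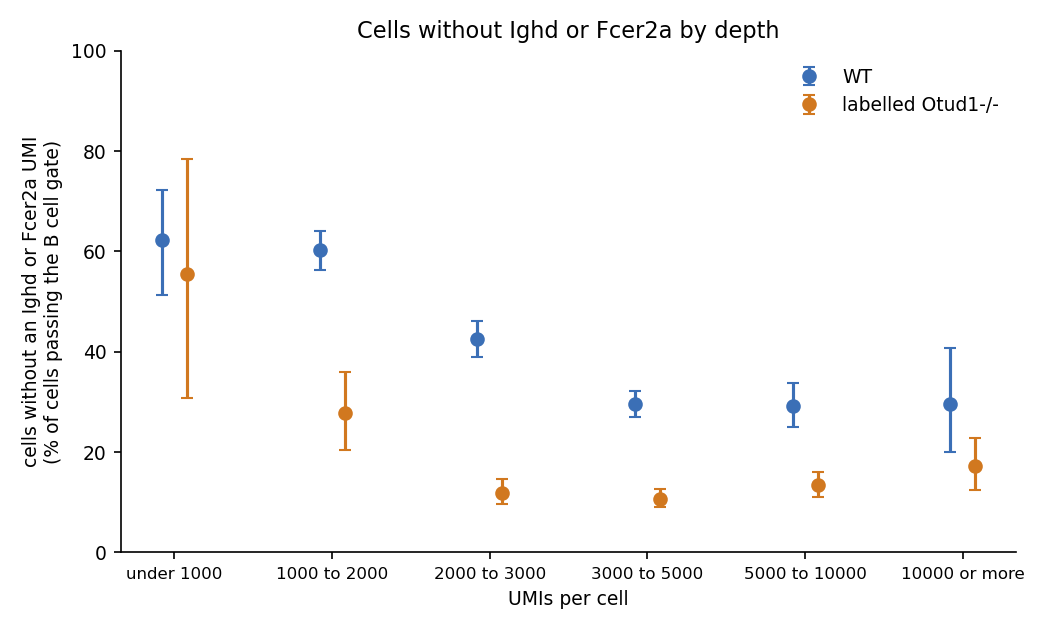
Share of cells passing the B cell gate that had no Ighd or Fcer2a UMI (y axis, percent) in 6 bins of UMIs per cell (x axis), for WT and the library labelled Otud1-/-. Points are shares and bars exact 95% binomial intervals; the WT share is above the other in each bin of 1000 UMIs or more, and both fall from the shallowest bins to the bin of 3000 to 5000 UMIs.

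At the edge of the rule, 263 cells in WT and 24 in the other library had exactly 4 gate UMIs. Another 357 and 30 cells had exactly 3 and fell just outside. A single Ighd or Fcer2a UMI kept out 678 and 483 further cells. In WT the median depth of cells with exactly 4 gate UMIs was 1795 UMIs, and that of cells with exactly 1 Ighd or Fcer2a UMI was 2896.

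The label of a B cell did not hold for every selected cell. B cell markers that the rule did not use (9 genes, among them Pax5 and Ebf1) gave at least 3 UMIs in 83.2% of the WT cells and 98% in the library labelled Otud1-/-. Monocyte and macrophage markers (12 genes, among them Lyz2 and C1qa, none at 0 in either library) gave at least 3 UMIs in 23.4% of the cells in WT and 4.25% in the other library. Their summed level was 2302 CPM in WT and 1237 CPM in the other library. In Ighd/Fcer2a-positive cells it was 1744 and 1475 CPM, and 17.0% and 6.26% of cells had at least 3 such UMIs. T cell markers not used by the rule reached 3 UMIs in 4.69% and 0.75% of the selected cells, NK cell markers in 3.49% and 0.75%, and neutrophil markers in 5.24% and 3.75%. In the library labelled Otud1-/-, whose cells were deeper, 2 sets reached 3 UMIs more often. Plasma cell markers did so in 25.8% of WT cells and 39.25% in the other library, at 592 and 603 CPM. Plasmacytoid dendritic cell markers did so in 18.6% and 25.5%, at 630 and 589 CPM. Both sets hold genes that B cells express too. Mast cell and basophil markers stood at 80.9 and 150 CPM, with at least 3 UMIs in 0.794% and 0.5% of cells. In the library labelled Otud1-/- 1 of 8 NK cell markers and 1 of 9 neutrophil markers had no UMI. Simulated-doublet scores, with the highest ones marked at a fixed rate, marked 121 cells in WT (9.61%) and 10 in the other library (2.5%).

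Clustering of the 1659 cells, with both libraries together, gave 9 clusters. Genes of the rule, immunoglobulin genes and Otud1 were left out of the clustering. The leading genes of a cluster come from the same cells that were clustered, so they and the cluster sizes are a description. Cluster 2 resembled follicular naive B cells by 5 fixed markers. Cluster 0 had 4 such markers among its leading genes, but its switched heavy chain UMIs, given with the heavy chain genes below, go against that name, so it is called by its number. Cluster 0 (208 WT cells and 138 of the library labelled Otud1-/-) was led by Ccr6, a chemokine receptor, with Ly6d, Fcmr, the IgM Fc receptor, and Plac8. Cluster 2 (132 and 165 cells) was led by Zfp318, which is needed for IgD expression, with Cd55, Cmah and Satb1. Cluster 4 (176 and 54 cells) resembled germinal centre B cells by 6 markers, with Rgs13, Nt5e, S1pr2, Eaf2 and Mef2b among its leading genes. Cluster 1 (287 and 16 cells) was led by histone and DNA replication genes such as Rrm2, and cluster 6 (71 and 3 cells) by mitotic genes such as Cdc20, Cenpf and Ccnb1 together with Gcsam, a germinal centre gene.

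The other 4 clusters were led by genes of other lineages. Cluster 3 (225 and 11 cells) was monocyte/macrophage-like, with Lyz2 at 5938 CPM and C1qa at 886 CPM against at most 231 and 34 CPM in clusters 0, 1, 2, 4 and 6. Cluster 5 (97 and 5 cells) stayed unnamed and was led by Ctla2a, Gzma, Rora, Ccl5, Il2rb and Il7r, genes of T cells and innate lymphocytes. Mast cell proteases were counted in few of its 102 cells, Cma1 in 14 (293 UMIs) and Cpa3 in 9 (202 UMIs). Cluster 7 (41 and 6 cells) was neutrophil-like, with Cxcr2 at 193 CPM and Retnlg at 474 CPM. Cluster 8 (22 and 2 cells) was plasmacytoid dendritic cell-like, with Siglech at 1202 CPM and Ccr9 at 1414 CPM. Clusters 3, 5, 7 and 8 together held 385 cells in WT (30.6%, 28.0 to 33.2) and 24 in the other library (6%, 3.88 to 8.80). The gate genes were still counted in them, with a median of 5 or 6 UMIs per cell against 8 to 10 in the other clusters, and 24.6% of cluster 3 and 27.7% of cluster 7 carried a doublet mark. What part doublets and RNA of other cell types had in these clusters was not tested. With these 4 clusters taken out of the negative cells, and no positive cell taken out, the share of gate cells was by construction lower, 31.3% in WT and 12.5% in the other library. With cells of at least 3 other-lineage UMIs taken out of negative and positive cells alike it was 37.5% and 12.4%. Such cells are not all of another lineage, because the plasmacytoid dendritic cell set counted here holds genes that B cells express too. They made up 30.3% of cluster 0 and 34.0% of cluster 1, which were not led by genes of other lineages.

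**Figure D2:**
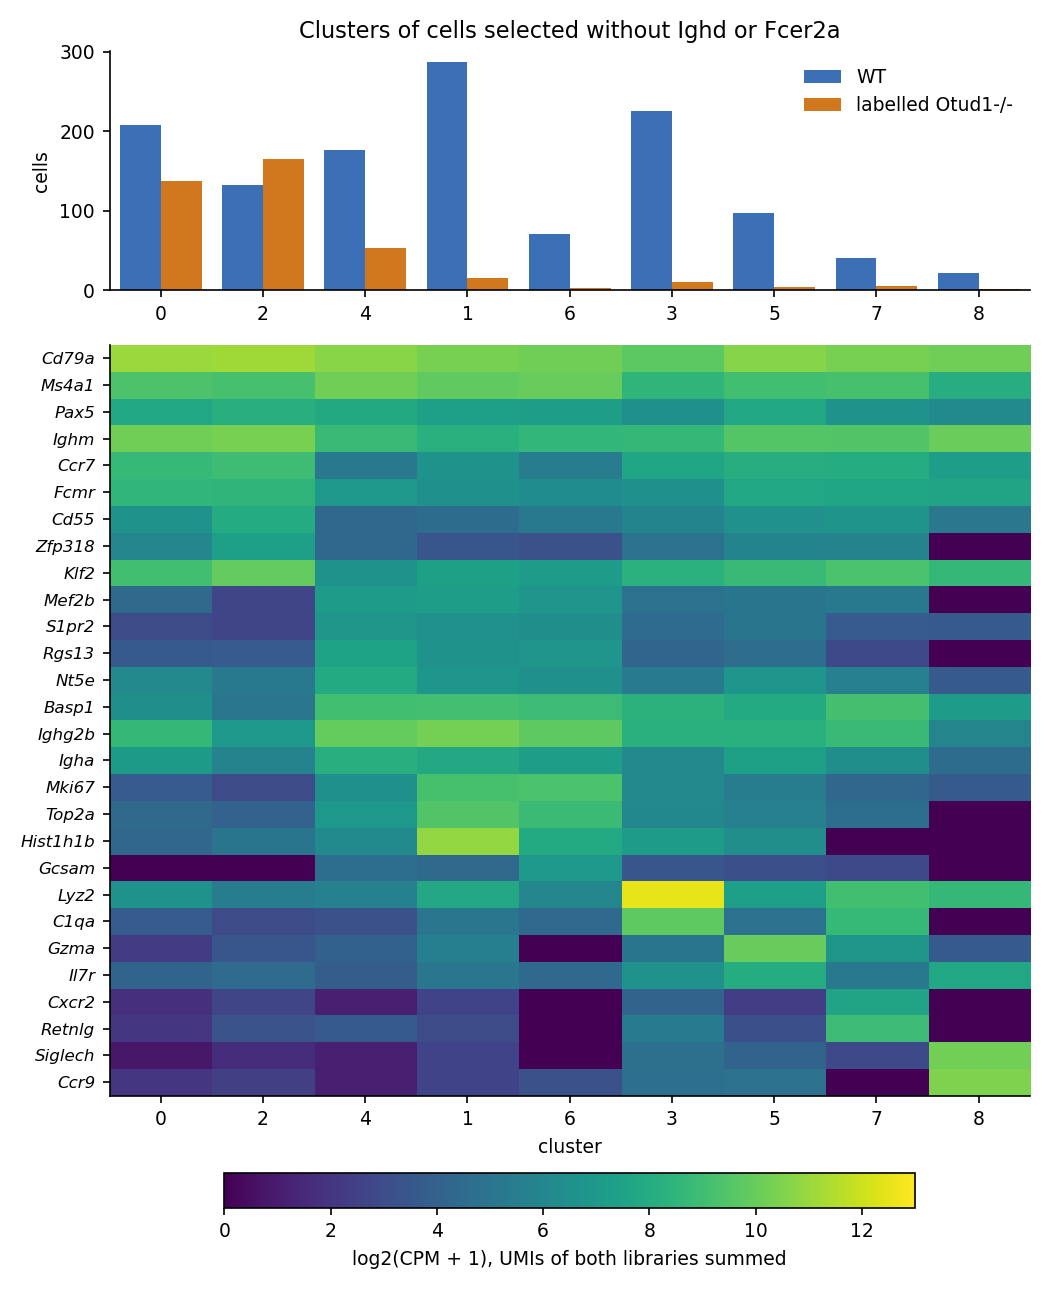
Upper panel, cells per cluster (y axis, cells; a bar per library); lower panel, level of selected genes in each cluster as log2(CPM + 1) of the UMIs of both libraries summed (colour; clusters on the x axis). Mef2b, S1pr2 and Rgs13 are high in clusters 4, 1 and 6, Mki67 and Top2a in clusters 1 and 6, and Lyz2 peaks in cluster 3 at 5938 CPM.

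Germinal centre genes differed between clusters 4, 1 and 6 and clusters 0 and 2. The clustering did not leave out Mef2b, S1pr2, Ccr7 or Klf2, so these differences may be partly built in and are a description. Mef2b, a transcription factor of germinal centre B cells, stood at 137, 153 and 107 CPM in clusters 4, 1 and 6, against 21.5 and 5.66 CPM in clusters 0 and 2. S1pr2, the receptor that holds B cells in the follicle, was at 117, 95.03 and 86.5 CPM against 7.17 and 5.66 CPM. Ccr7, which guides lymphocytes towards T cell zones, showed the opposite order, with 37.0, 97.6 and 45.3 CPM against 410 and 504 CPM. The transcription factor Klf2 was at 102, 167 and 144 CPM against 543 and 945 CPM.

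To describe how the selected cells differ from other B cells of the same library, their summed levels were set against those of the Ighd/Fcer2a-positive cells. The rule used this contrast, so its values are a description. Of 2736 genes with a mean of at least 50 CPM in WT, 231 were at least 1.5-fold higher in the negative cells (8.44%) and 142 at least 1.5-fold lower (5.19%). In the library labelled Otud1-/- 64 of 2674 genes were higher (2.39%) and 50 lower (1.87%). Among 2528 genes at this level in both libraries, 48 were higher in both, which is 48 of the 182 higher in WT and of the 61 higher in the other library. Another 26 were lower in both, of 135 and 47.

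Genes of DNA replication, of mitosis and of the germinal centre were among those higher in both libraries. Pclaf, a partner of the replication clamp PCNA, was at 368 CPM in negative and 91.7 CPM in positive WT cells. In the other library it was at 147 and 36.4 CPM, and the log2 ratio was 2.0 in each (1.87 to 2.14 and 1.80 to 2.22). Nt5e, which encodes the ecto-enzyme CD73, was at 95.9 and 35.0 CPM in WT and at 91.8 and 23.8 CPM in the other library, with log2 ratios of 1.44 (1.22 to 1.68) and 1.93 (1.68 to 2.22). Log2 ratios of Stmn1 (a microtubule regulator) were 1.86 and 1.31, of Mki67 (a proliferation marker) 1.66 and 1.13, of Top2a 1.57 and 1.03, and of Basp1 1.42 and 1.28. Rgs1, a regulator of chemokine receptor signalling, had 1.12 and 1.17. Dut, Hist1h2ap, Hist1h1b, Glrx3 and Hmces completed the 12 highest, at 1.13 to 1.92 in WT and 0.96 to 1.08 in the other library. In the library labelled Otud1-/- the histone genes depended on which cells were kept. With cells of at least 3 other-lineage UMIs taken out of the negative cells only, Hist1h1b was at −0.37 and Hist1h2ap at −0.19. With such cells, which include B cells, taken out on both sides, these genes were at 0.45 (0.10 to 0.80) and 0.30 (−0.04 to 0.62). Reads of near-identical histone genes may be split between copies, so values of single histone genes are uncertain.

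Lower in both were, among others, Klf2 and Cd55 of the follicular naive list. Zfp318 was at 42.5 CPM in negative and 125 CPM in positive WT cells, and at 66.9 and 152 CPM in the other library. Its log2 ratios were −1.55 (−1.81 to −1.32) and −1.18 (−1.44 to −0.93). Klf2 had −0.93 and −0.82, and Cd55, a complement regulator, −1.18 and −0.68. Tmem108, Pgap1, Treml2, Cmah, Zfp608, Card6, Dmxl1 and B3gnt5 lay between −1.19 and −0.73 in both libraries.

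**Figure D3:**
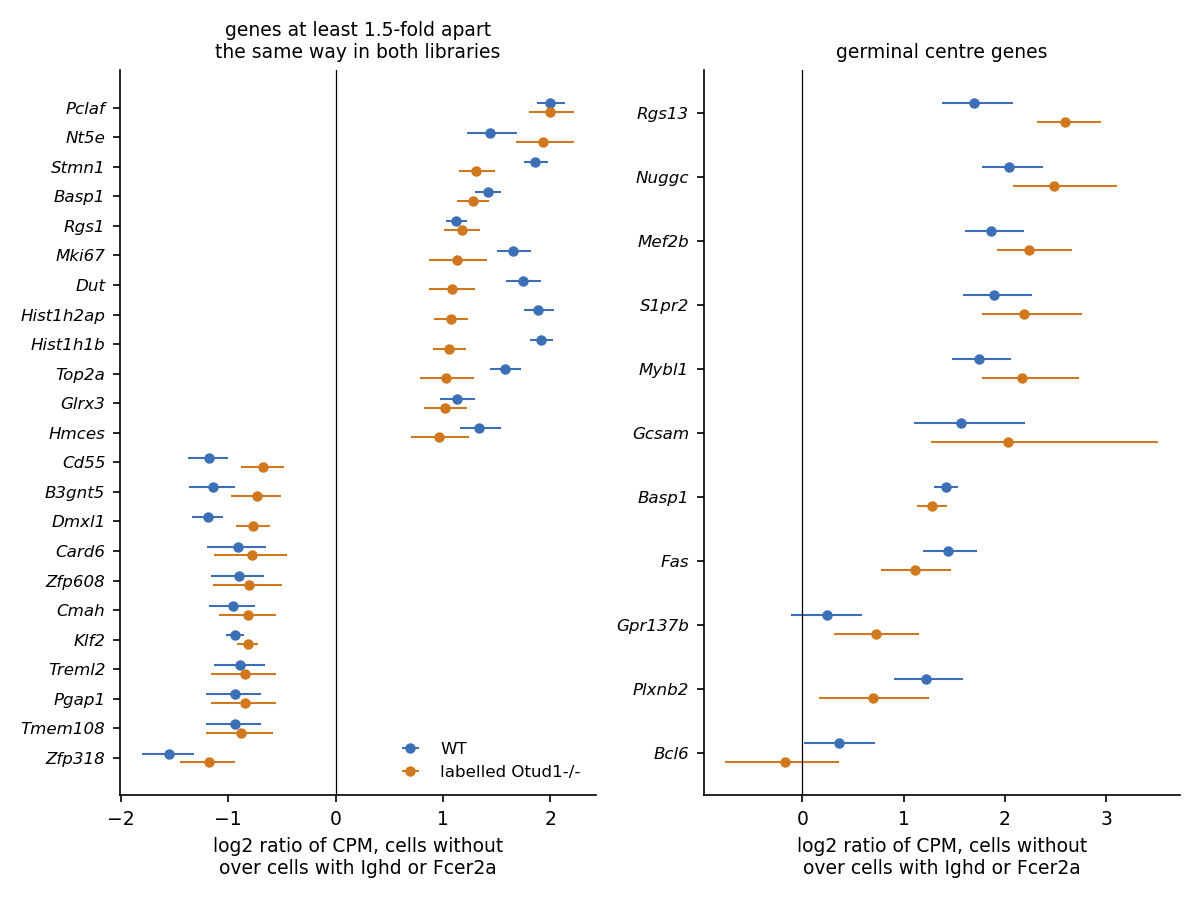
Log2 ratio of CPM (x axis; prior of 0.5 CPM) in Ighd/Fcer2a-negative over Ighd/Fcer2a-positive cells of the same library, for genes chosen for this contrast (left) and for genes of the germinal centre list (right). Points are ratios and bars exact 95% conditional intervals; Rgs13 stands at 1.70 in WT and 2.59 in the library labelled Otud1-/-, Bcl6 at 0.36 and −0.17.

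Gene lists were read at a mean of at least 20 CPM over negative and positive cells. A gene low in positive cells could thus pass only through a high level in negative cells. Counts and medians of lists of such genes are partly fixed by this filter and are a description. At that level in WT 8.42% of 5425 genes lay at least 1.5-fold above the positive cells and 5.07% below, and 3.6% and 2.51% of 5219 genes in the other library, with medians of 0.01 in both. Of 11 measured germinal centre genes 9 were higher in WT and 0 lower, with a median log2 ratio of 1.68. Of 6 measured in the library labelled Otud1-/- all 6 were higher, with a median of 1.76. The list holds 14 genes, and those below the minimum, Bcl6 among them in that library, were not counted. Of 18 cell cycle genes 18 were higher in WT (median 1.61), and in the other library 9 of 12 (median 0.76). Of 12 follicular naive genes 8 were lower in WT (median −0.95) and 5 of 12 in the other library (median −0.49). Cells with at least 3 UMIs of another lineage were then taken out of negative and positive cells alike, a restriction chosen after the data were seen, which left 722 negative and 1202 positive cells in WT and 279 and 1970 in the other library. The germinal centre medians were then 2.12 and 2.55, the cell cycle medians 1.94 and 0.76, and the follicular naive medians −0.98 and −0.35.

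Most germinal centre genes stood apart, and Bcl6 did not. Nuggc, a nuclear GTPase of germinal centre B cells, was at 75.3 CPM in negative and 17.9 CPM in positive WT cells, and at 31.2 and 5.16 CPM in the other library. Bcl6, the transcription factor that directs the germinal centre programme, was at 29.8 and 23.1 CPM in WT and at 15.6 and 17.7 CPM in the other library. Its log2 ratios were 0.36 (0.02 to 0.72) and −0.17 (−0.76 to 0.36). Bcl6 UMIs were found in 8.02% of negative WT cells and 7% of negative cells of the other library. In T cells of the same libraries (at least 4 UMIs of the T cell genes, at most 1 of the gate genes) the shares were 6.11% and 11.2% at greater depth. Thinned to 1000 UMIs they were 2.99% (2.10 to 4.12) in negative and 1.30% (0.69 to 2.21) in T cells of WT, and 1.03% (0.28 to 2.61) and 1.85% (1.01 to 3.08) in the other library. Mef2b and Rgs13 were found in 16.4% and 9.77% of negative WT cells and in 15% and 13.25% of those of the other library. In WT T cells the same genes were found in 0.291% and 0.194%, at a median of 3509 UMIs per cell, above that of the negative cells. In T cells of the library labelled Otud1-/- Mef2b and Rgs13 were found in 0.527% and 0.132%, at a median of 4860 UMIs.

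Heavy chain constant genes were left out of the rule, except Ighd, and out of the clustering. Ighd is lost when a cell switches class, so a rule on Ighd favours switched cells among negative and unswitched cells among positive ones. Heavy chain differences between negative and positive cells are therefore partly built in and are a description. In negative WT cells Ighm made up 40.0% of heavy chain constant UMIs, Ighg2b (IgG2b) 46.3% and Igha (IgA) 10.3%. In negative cells of the library labelled Otud1-/- the shares were 59.2%, 26.8% and 9.19%. In positive cells Ighg2b made up 12.3% and 4.23% and Igha 2.84% and 1.86%, beside 24.7% and 28.6% of Ighd. Cells with more UMIs of switched classes than of Ighm were 618 of 1137 negative WT cells with any such UMI (54.4%) and 112 of 381 in the other library (29.4%). Among positive cells they were 15.7% and 4.04%, and among T cells 34.9% and 40.8%, so in the library labelled Otud1-/- the share in negative cells was below that of the T cell background. Near-identical Ighg genes may share reads, so single IgG classes are uncertain, and Ighm UMIs can come from unswitched transcripts of any of these cells.

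Free immunoglobulin RNA was present in both libraries. T cells, which do not make it, held switched heavy chain UMIs at 191 CPM in WT and 69.2 CPM in the other library. In negative cells the level was 901 and 633 CPM, and in positive cells 351 and 164 CPM. Of switched and Ighm UMIs combined, the switched share in T cells was 52.5% and 44%, against 60.0% and 40.8% in negative cells, so the background is set apart by level and not by this share. Clusters differed within each library. In clusters 1, 4 and 6 switched UMIs reached 1464 CPM in WT and 1242 CPM in the other library, and 83.2% and 73.6% of cells had more switched than Ighm UMIs. Ighg2b made up 65.6% and 51.4% of heavy chain UMIs there. In cluster 2 Ighm made up 85.6% and 88.1%, and switched UMIs stood at 228 and 170 CPM, with 9.84% and 7.33% of cells holding more switched than Ighm UMIs. Cluster 0 lay between, with Ighm at 64.9% and 64.5%, switched UMIs at 662 and 607 CPM, and 31.25% and 30.4% of such cells.

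**Figure D4:**
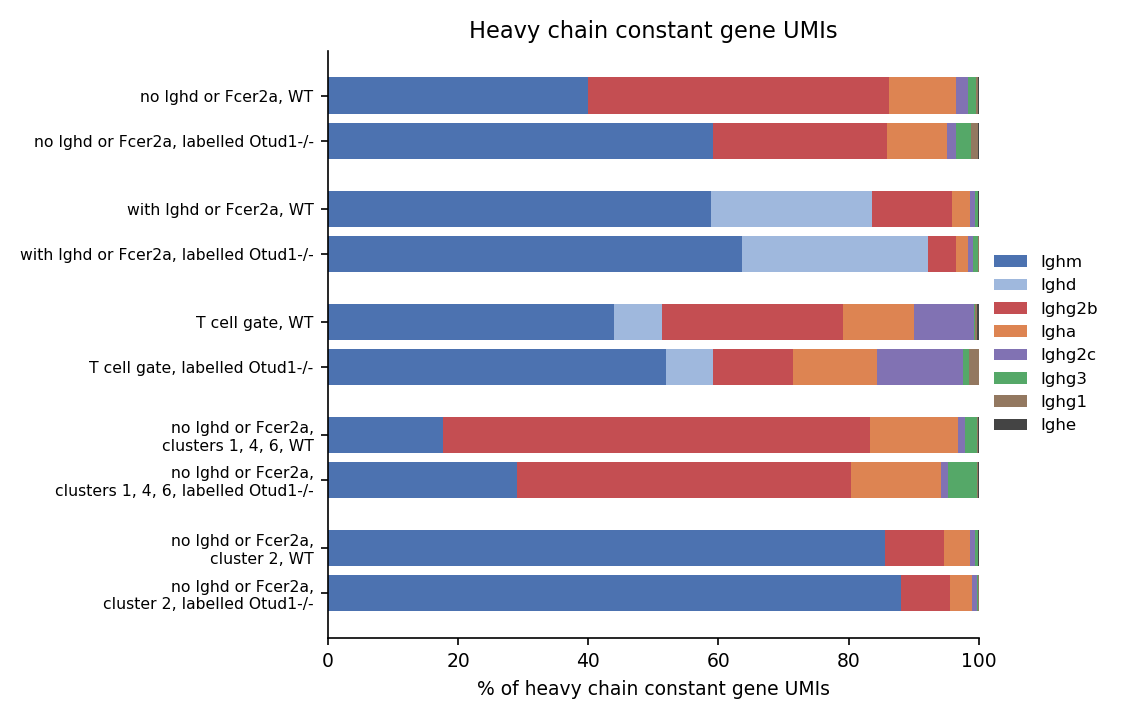
Share of each heavy chain constant gene in all heavy chain constant UMIs (x axis, percent) for 5 sets of cells in each library (y axis). Negative cells hold more Ighg2b than positive cells in both libraries (46.3% against 12.3% in WT), clusters 1, 4 and 6 are mostly Ighg2b and Igha, and T cells show the background.

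Of 11 immunoglobulin constant genes other than Ighd, 8 reached 20 CPM in each contrast. Against positive cells, 5 were at least 1.5-fold higher and 1 lower in WT, and 3 higher and 0 lower in the other library. Ighg2b was at 695 CPM in negative and 263 CPM in positive WT cells, and at 415 and 89.1 CPM in the other library (log2 ratios 1.40 and 2.21). Igha was at 154 and 60.8 CPM in WT and at 143 and 39.2 CPM in the other library (1.34 and 1.85). Ighg3 was at 37.1 and 14.2 CPM in the other library (1.36), and in WT at 18.3 and 9.22 CPM, below the minimum. Igkc, the kappa light chain constant gene, was within 0.23 in both.

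Lists of other B cell states gave few genes. Of 16 precursor genes 3 were measured in WT, with 0 higher and 0 lower (median 0.26). In the other library 2 were measured, and Il7r was lower (median −0.47). Il7r was found in 14.3% and 5.25% of negative cells, and Ebf1, also a B cell marker, in 80.8% and 97.25%. Rag1, Rag2 and Vpreb2 as well as Igll1 had 0 UMIs in the negative cells of both libraries. That allows up to 0.939 CPM in WT and 1.80 CPM in the other library (exact Poisson limits). Vpreb1 had 1 UMI in WT and 0 in the other library. Of 10 measured memory genes 2 were higher in WT (Nt5e and Anxa2) and 2 lower (Cd38 and Klf2). In the library labelled Otud1-/- Nt5e was higher and Klf2 lower. Cd80 and Pdcd1lg2, surface molecules of memory cells, stood at 18.6 and 10.2 CPM in negative WT cells and at 15.1 and 17.1 CPM in the other library, against 15.3 and 15.2 CPM and 12.9 and 20.4 CPM in positive cells. Of 8 measured B1 and marginal zone genes 2 were higher in WT (Rgs10 and Mzb1) and 0 lower. Of 9 in the library labelled Otud1-/- 2 were higher (Bhlhe41 and Mzb1) and 1 lower (S100a6). Mzb1, a chaperone of antibody assembly that is also on the plasma cell list, was higher in both (log2 ratios 0.80 and 0.94). Bhlhe41, a transcription factor of B1 cells, was at 33.2 against 16.0 CPM in the library labelled Otud1-/- (1.03) and at 16.0 against 16.7 CPM in WT. Of age-associated B cell genes 0 of 4 measured in WT and 0 of 3 in the other library differed 1.5-fold, and Tbx21 had 6 and 7 UMIs in all.

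Receptors that position B cells were mostly lower or level. Of 12 measured homing receptors 5 were at least 1.5-fold lower than in positive cells in WT, among them S1pr1, Ccr9, Ccr7 and Ccr6, and 2 in the other library, among them S1pr1. Of the 172 Ccr9 UMIs in negative cells 120 lay in the 24 cells of plasmacytoid dendritic cell-like cluster 8 and 28 in macrophage-like cluster 3. S1pr1, the receptor for exit into lymph, was at 71.7 against 141 CPM in WT and at 84.5 against 131 CPM in the other library. Cxcr4, which draws germinal centre cells to the dark zone, was at 217 against 275 CPM and 214 against 259 CPM. Of B cell cytokines and factors that act on bone, 4 and 3 genes reached 20 CPM and 0 differed 1.5-fold. Tnfsf11, which encodes the osteoclast factor RANKL, had 9 UMIs in WT and 4 in the other library. Il10 had 61 and 15 UMIs, and Ltb, a lymphotoxin subunit, stood at 167 and 239 CPM.

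Between the libraries, 2719 genes reached a mean of 50 CPM in the negative cells. Of these 65 were at least 1.5-fold higher in the library labelled Otud1-/- than in WT (2.39%) and 211 at least 1.5-fold lower (7.76%), with a median log2 ratio of −0.02. With clusters 0, 1, 2, 4 and 6 only, 83 of 2692 genes were higher and 235 lower. Mitotic genes and genes of other immune cells were among the lowest. Cenpf, Nusap1 and Ube2c, which act in mitosis, were at 93.9, 92.1 and 119 CPM in WT and at 22.0, 18.1 and 30.3 CPM in the other library, with log2 ratios of −2.07 (−2.58 to −1.65), −2.32 (−2.88 to −1.86) and −1.96 (−2.39 to −1.59). Ccl5, Gzma, Ccl3, Cxcl9, Tgfbi, C1qa and C1qc, genes of lymphocytes, macrophages or both, had log2 ratios from −2.75 to −1.88. Clusters 3, 5, 7 and 8 held 30.6% of the negative cells in WT and 6% in the other library, and their part in these ratios was not tested.

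The 2 lowest ratios belonged to haemoglobin genes. Hba-a1 had 424 UMIs in WT and 12 in the other library (−4.09), and Hbb-bs 757 and 31 (−3.63). A single WT cell held 47.9% and 45.7% of these WT UMIs, and without the top cell of each library the ratios were −3.27 and −2.84. Without all cells that carried at least 3 UMIs of another lineage, erythroid genes included, they were 0.36 and 0.19. Hba-a1 and Hbb-bs belong to that erythroid set, so this took out every cell rich in them by construction. Likewise Cma1, highest of all ranked genes at 2.21, had 98.6% of its UMIs in the library labelled Otud1-/- in 1 cell. Without the top cell of each library its log2 ratio was −3.30.

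The higher end included leading genes of clusters 0 and 2. Plac8 was at 751 CPM (724 to 779) in WT and 1380 CPM (1329 to 1431) in the library labelled Otud1-/-, and Ly6d, a B lineage surface protein, at 328 and 653 CPM. Fcmr was at 148 and 308 CPM (log2 ratio 1.05, 0.89 to 1.22), Ccr6 at 58.0 and 142 CPM (1.28, 1.04 to 1.55), and Serpinb1a at 50.9 and 125 CPM (1.29). Ahr, the aryl hydrocarbon receptor, was at 32.3 and 67.9 CPM (1.06), the cyclin Ccnd2 at 62.1 and 116 CPM (0.90) and Cd38 at 35.9 and 66.4 CPM (0.88). Coq8a, Tcp11l2 and BE692007 had log2 ratios of 0.93, 0.94 and 1.32. In clusters 0 and 2 alone, holding 340 and 303 cells, the log2 ratio was 0.59 for Plac8, 0.41 for Ly6d, 0.46 for Fcmr, 0.21 for Ccr6 and 0.64 for BE692007. In these clusters 67 of 2547 genes were higher and 108 lower.

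At a mean of 20 CPM, 3.37% of 5348 genes were higher and 8.75% lower. Of 18 cell cycle genes 0 were higher and 16 lower in the library labelled Otud1-/-, with a median log2 ratio of −1.14. Rrm2, a subunit of ribonucleotide reductase, was at 83.5 and 22.9 CPM, Top2a at 259 and 84.9 CPM and Mki67 at 228 and 76.6 CPM. Of 11 germinal centre genes 7 were lower, among them Nuggc (−1.26), Mybl1 (−1.10) and S1pr2 (−0.84), and the list's median was −0.84. Rgs13 was higher, with 189 UMIs in WT and 167 in the other library, which was 48.1 CPM (41.5 to 55.5) and 81.5 CPM (69.6 to 94.9). Of 12 follicular naive genes 4 were higher (Cd55, Fcmr, Cxcr5 and Ccr7; median 0.33). Restricted to cells that had Y-linked but no Xist UMIs, the lists gave medians of −0.76 for the cell cycle, −0.70 for the germinal centre and 0.03 for the follicular naive list.

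Within clusters 1, 4 and 6, which held 534 cells in WT and 73 in the library labelled Otud1-/-, S1pr2 and Mef2b were level within counting error. The clustering did not leave out S1pr2, Mef2b or Rgs13, so likeness of their levels within these clusters may be partly built in. S1pr2 was at 102 CPM in WT and 103 CPM in the other library (log2 ratio 0.01, −0.45 to 0.44) and Mef2b at 136 and 163 CPM (0.26, −0.10 to 0.62). Rgs13, a regulator of G protein signalling, was at 91.6 and 262 CPM (1.51, 1.18 to 1.85). In cluster 4 alone Rgs13 was at 102 and 319 CPM (1.64, 1.15 to 2.15), with 52 and 105 UMIs. Mki67 was at 467 and 265 CPM in clusters 1, 4 and 6 (−0.81, −1.08 to −0.56), and Top2a at 535 and 269 CPM (−0.99, −1.25 to −0.74). Ccl5, a chemokine of T and NK cells, was at 169 and 21.2 CPM even there (−2.96, −3.96 to −2.17). Cluster 1 gave most of the WT cells of this set and cluster 4 most of the others, so values over all 3 clusters also carry their different make-up.

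**Figure D5:**
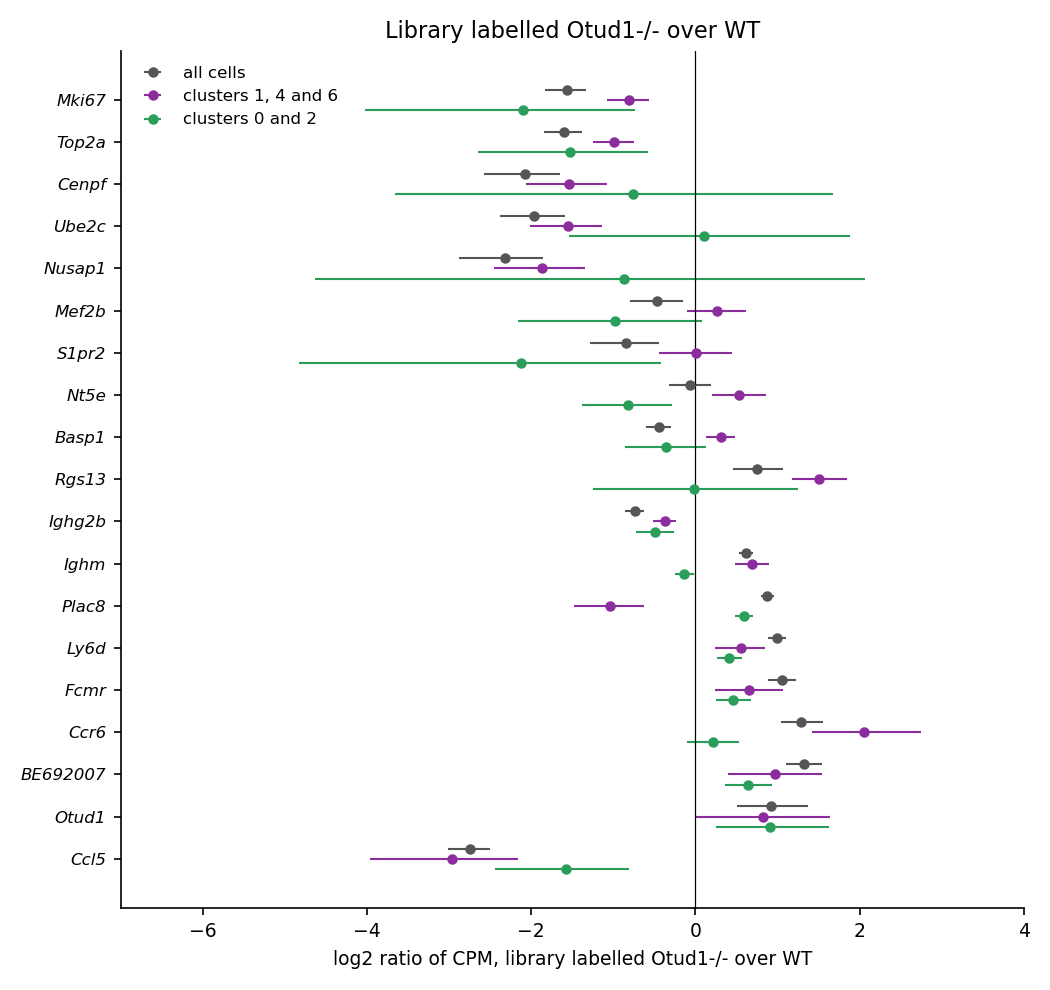
Log2 ratio of CPM (x axis; prior of 0.5 CPM) in the library labelled Otud1-/- over WT for selected genes, over all Ighd/Fcer2a-negative cells, over clusters 1, 4 and 6, and over clusters 0 and 2. Points are ratios and bars exact 95% conditional intervals. S1pr2 and Mef2b, which the clustering did not leave out, lie near 0 within clusters 1, 4 and 6, and Rgs13 lies at 1.51 there.

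Heavy chain genes differed between the libraries as well. Ighm was at 601 CPM in WT and 919 CPM in the library labelled Otud1-/- (0.61, 0.52 to 0.70), and Ighg2b at 695 and 415 CPM (−0.74, −0.85 to −0.63). Igha was at 154 and 143 CPM (−0.12, −0.32 to 0.09). Within cluster 4 Ighm was at 337 and 590 CPM (0.81, 0.50 to 1.11), while within clusters 0 and 2 it was at 1280 and 1165 CPM (−0.14, −0.25 to −0.02). Iglc2, a lambda light chain constant gene, was at 828 and 487 CPM (−0.76), and Igkc was at 4951 and 4957 CPM.

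Most lists of general B cell function were close to level between the libraries. Of 25 measured protein transport genes, the process named in the study's title for neutrophils, 0 were 1.5-fold apart in either direction and the median log2 ratio was 0.01. The 4 ratios farthest from 0 were −0.51 for Sec61g, −0.35 for Rab1a, −0.30 for Vamp8 and 0.24 for Srp14. Of 10 MHC class II genes 0 were 1.5-fold apart (median 0.28), and of 18 B cell receptor genes 2 were higher, Cd72 and Blk. Of 20 B lineage transcription factors Irf4 was higher, at 33.1 and 62.5 CPM, and Pou2af1, a coactivator needed for germinal centres, lower, at 233 and 132 CPM. Of 9 measured deubiquitinases Otud1 was higher and Tnfaip3, the NF-κB inhibitor A20, lower, at 123 and 74.2 CPM. The interferon-stimulated list was not level, and of its 9 measured genes 3 were lower (Irf7, Zbp1 and Isg15) and 0 higher (median −0.48). Of 15 early response genes Egr3, Myc and Cd86 were higher and Ccl3, Ccl4 and Fos lower (median 0.12).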

How the data were processed

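Per the file headers, the matrices that the authors deposited hold UMI counts, with no normalisation. Per the submitters' processing notes the authors used Cell Ranger 5.0.0, Seurat 3.2.3 and mm10, while the matrix headers name Cell Ranger 6.0.1. Counts of the selected cells were summed per library (3930339 UMIs in WT, 2048503 in the library labelled Otud1-/-), scaled to CPM and compared as log2 ratios with a prior of 0.5 CPM and exact conditional binomial 95% intervals. CPM carries exact Poisson and shares exact Clopper-Pearson intervals. UMIs mark molecules, and all intervals cover counting error only. Cells were log-normalised (scale 10000) and clustered on 1500 variable genes, 20 principal components and 15 neighbours with Leiden at resolution 0.6 (scanpy 1.11.5, leidenalg 0.10.2, Python 3.11.15), without integration. A cluster was called X-like if at least 3 fixed markers of a type were among its 50 leading genes (by fold, among genes in at least 25% of its cells) and no other type had more in its top 10, a rule set after seeing the data. A Scrublet-type doublet score made 0 automatic calls, too few to have worked, so doublets were kept. The highest scores at 0.8% per 1000 kept cells were removed only as an alternative.

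Named genes were the 12 highest and 12 lowest log2 ratios past 1.5-fold between libraries, the 12 highest and 12 lowest shared by both libraries against Ighd/Fcer2a-positive cells (by the smaller ratio), Otud1, the 4 largest ratios of each of 20 lists, and all members of the precursor, germinal centre, memory, B1, age-associated, homing, immunoglobulin and cytokine lists. Genes of the rule, immunoglobulin, T cell receptor, sex-linked, mitochondrial and predicted genes were not ranked. A few genes are not reported here. Cluster genes were named from their rank in a cluster. The selected cells and the lists were chosen with earlier results of these data known. The gene comparison was tested on simulated data. Coordinates are from the GENCODE vM21 annotation of GRCm38.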

Additional observations from a re-analysis of the deposited data

Results flagged for a closer look

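In 6 genes the selected cells were at least 1.5-fold above the Ighd/Fcer2a-positive cells of the WT library and at least 1.5-fold below those of the library labelled Otud1-/-. The difference between the libraries was not tested, since each genotype had 1 library. All 6 are genes of myeloid cells or T and NK cells. Log2 ratios in WT and in the library labelled Otud1-/- were 0.64 and −0.996 for Il1b, an inflammatory cytokine, and 0.64 and −0.93 for Ifitm3, an antiviral membrane protein. They were 1.09 and −1.23 for Ccl5, 0.61 and −0.95 for Wfdc17, 0.64 and −0.96 for Tgfbi, and 0.80 and −0.83 for Lgals3, which encodes galectin-3. Of the UMIs of these genes, 81.8% to 91.1% in WT and 77.3% to 92.2% in the other library lay in clusters 3, 5, 7 and 8, which were led by genes of other lineages and held 385 cells in WT and 24 in the other library. A single cell of the library labelled Otud1-/- held 16.3% to 31.9% of the UMIs of each gene. With cells of at least 3 other-lineage UMIs taken out of negative and positive cells alike, the log2 ratios lay between 0.31 and 0.94 in WT and between −0.48 and 0.26 in the other library, where each interval included 0.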

How the results depend on the processing

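The shares moved with the gate. With at most 5% mitochondrial UMIs they were 8.62% of kept and 42.0% of gate cells in WT, and 3.42% and 11.8% in the library labelled Otud1-/-. With a gate of 6 UMIs they were 6.19% and 35.1% in WT and 5.16% of kept cells in the other library, and with cells of at least 2000 UMIs 11.4% and 33.6% in WT. Without negative cells carrying 3 or more UMIs of another lineage, and for the gate share without such positive cells too, they were 5.65% and 37.5% in WT and 4.02% of kept cells in the other library. With negative cells of clusters 0, 1, 2, 4 and 6 only, and all positive cells kept, an alternative added after seeing the data, they were 6.84% and 31.3% in WT. In each of these settings the WT share was the higher one.

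Counts of genes past 1.5-fold moved as follows. A minimum of 20 CPM gave 180 higher and 468 lower between libraries, 457 and 275 against positive cells in WT, and 188 and 131 in the library labelled Otud1-/-. A minimum of 100 CPM gave 21 and 92, 112 and 75, and 23 and 23. Both changes alter the number of genes read. Leaving out negative cells with at least 3 other-lineage UMIs, and no positive cells, gave 134 higher between libraries. It also gave 244 and 82 lower against positive cells in WT and in the other library. Leaving out such cells on both sides, also added after seeing the data, gave 377 higher and 215 lower in WT and 24 lower in the other library. Clusters 0, 1, 2, 4 and 6 only gave 357 higher and 275 lower in WT and 110 lower in the other library. Positive cells with at least 3 Ighd or Fcer2a UMIs gave 401 and 239 in WT. The causes were not tested.

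These values changed sign. The precursor list's median between libraries, of 2 measured genes, was 0.35 with at most 5% mitochondrial UMIs and 0.39 at the higher minimum. It was 0.18 without negative cells of at least 3 other-lineage UMIs. Without those cells Hba-a1 was at 0.36, Hbb-bs at 0.19 and Cma1 at −0.56 between libraries. Hba-a1 and Hbb-bs are themselves counted by that filter. Against positive cells of the library labelled Otud1-/- Hist1h1b was at −0.37 and Hist1h2ap at −0.19 in the same setting. Hbb-bs was at 0.65 in cells that had Y-linked but no Xist UMIs. Cma1 was at −0.56 with clusters 0, 1, 2, 4 and 6 only and at −3.30 without the top cell of each library. Of the other values, 885 of named genes and 735 of lists stayed, and 56 and 22 moved without changing sign. With 1 library per genotype none could be left out. TMM factors and median of ratios shifted all genes by at most 0.06, and resolutions of 0.3 and 1 gave 7 and 12 clusters. No paired analysis was possible because each genotype had 1 library and no test was run.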
